A study of Homo sapiens with 24 samples.

Results

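ZNF251 is a KRAB-containing zinc finger protein (KZFP), and the regions described here are its binding sites at protein-coding promoters. They are the peaks of the ZNF251 ChIP-exo list with a score above 80 whose midpoint lay within 500 bp of the transcription start site (TSS) of a protein-coding transcript, and there were 1386 of them among 20974 ZNF251 peaks above 80, which is 6.61% (95% Clopper-Pearson interval 6.28 to 6.95%). They touched 1500 of 19794 protein-coding genes. The series profiled 21 KZFPs and a HEK293T control, with 1 library each and no replicates, by ChIP-exo for 15 KZFPs, where exonuclease digestion shortens crosslinked fragments to near the footprint of the protein, and by ChIP-seq for the other 6 KZFPs and the control. Every KZFP library came from 293T, a line of human embryonic kidney origin, transduced to express the protein with 3 HA tags under a doxycycline-inducible promoter, induced with 1 μg/ml doxycycline, and precipitated with an antibody against HA. The control is labelled as a 293T control with the same antibody and induction, and what it carried is not given in the labels. Binding was thus read from an overexpressed, tagged protein in a single cell line, and gene expression is not analysed here.

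KZFPs bind DNA through arrays of zinc fingers, and most recruit KAP1 (TRIM28) through their KRAB domain, which brings histone deacetylation and the histone methylation of silent chromatin. Transposable elements are the best known targets of the family, whereas promoters are bound by fewer of its members. Many mammalian protein-coding promoters lie in CpG islands, stretches rich in GC that keep their CpG dinucleotides, and a share of them serve a pair of genes that are transcribed away from each other. The score of a peak is the one MACS gave it, the -log10 of its p-value times 10, so it ranks peaks of this list and is no measure of occupancy between libraries. Read numbers are not part of the lists, so the depth behind each peak is unknown, and all intervals cover counting error only.

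The sequences below show a word that 285 of the 1386 promoter peaks (20.6%) held in their central 200 bp. Words of 6 to 10 letters were ranked on odd-numbered chromosomes by how much more often the centre of promoter peaks held them than sequence 400 bp away, with both strands read. Among words of 8 letters the first was CTCAGCGC, which is GCGCTGAG on the other strand, and it was then found in 6.80% of the 662 promoter peaks on the chromosomes that the ranking did not use, against 0.604% of their flanking windows. Other words rich in G and C also came first. At 6 letters it was AGCGCC, in 22.5% of those peaks against 8.84% of flanks, and at 7 letters GCGCCGC, in 9.97% against 6.12%. At 10 letters it was GGCCCCGCCC, in 1.06% against 0.755%. After these ranks were seen, the wider form GCGCTNAG, where N is any base, was chosen and is called the promoter word. Windows of 30 bases are shown for high-scoring promoter peaks that hold it, in hg19 and 5′ to 3′, with the promoter word in capitals.
FGGY promoter peak, chr1:59762629-59762658, minus strand: tctgggcgtgcGCGCTAAGagcctgcgcac
C1orf112 promoter peak, chr1:169765023-169765052, minus strand: ggacgaagaagGCGCTAAGcgcctcaaatc
PRKG1 promoter peak, chr10:52751006-52751035, minus strand: cgagtgaatggGCGCTAAGtactcgagcgc
EBPL promoter peak, chr13:50265538-50265567, minus strand: ctgaagcatggGCGCTGAGtgggagctggg
MPHOSPH6 promoter peak, chr16:82203573-82203602, plus strand: gtgcagagcagGCGCTAAGtgaatgaatga
PES1 promoter peak, chr22:30988321-30988350, plus strand: agggtgagactGCGCTGAGttcccaccggc
DAG1 promoter peak, chr3:49507675-49507704, minus strand: gcggtgagaggGCGCTGAGcgcaagggcgg

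The same ranking over the ZNF251 peaks away from promoters led to another sequence, TAAGTGAAA, first among words of 9 letters and called the repeat word here. It is shown for 1 promoter peak that held it and for 2 high-scoring peaks elsewhere, again in hg19 with the word in capitals.
PPIAL4E promoter peak, chr1:148643929-148643958, plus strand: gacattttgcTAAGTGAAAgaagccagtct
Peak away from promoters, chr1:59177819-59177848, plus strand: aacattgtgcTAAGTGAAAcagcacaatca
Peak away from promoters, chr1:63849605-63849634, minus strand: gtcatgatgtTAAGTGAAAcaagccaggca

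Promoter peaks and the other ZNF251 peaks therefore differed in the words of their central 200 bp. The promoter word stood in 285 of 1386 promoter peaks, 20.6% (18.5 to 22.8%), and in 4.50% of the 19588 other ZNF251 peaks. The repeat word stood in 37.7% of the other peaks and in 25 promoter peaks, 1.80% (1.17 to 2.65%). Across all canonical protein-coding promoters, read as 200 bp at the Ensembl canonical TSS, 4.54% held the promoter word and 0.0820% the repeat word. Read at that same place, promoters of genes with a peak held the promoter word in 9.10% (7.69 to 10.7%), less than at the peak midpoints. Windows 400 bp to either side of the promoter peaks held the promoter word in 2.74% of cases, and CpG-rich promoters of genes without a peak in 5.55%. The 180 promoter peaks of ZNF746, the other KZFP with many promoter peaks, held it in 3.33% (1.23 to 7.11%). On odd-numbered chromosomes, which had ranked the words, 18.5% of promoter peaks held the promoter word, and on the remaining chromosomes 22.8% did. Since the wider form was chosen after the ranks were seen, neither share is an independent check of it. Sequence 400 bp away had also served to rank the words.

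**Figure D1:**
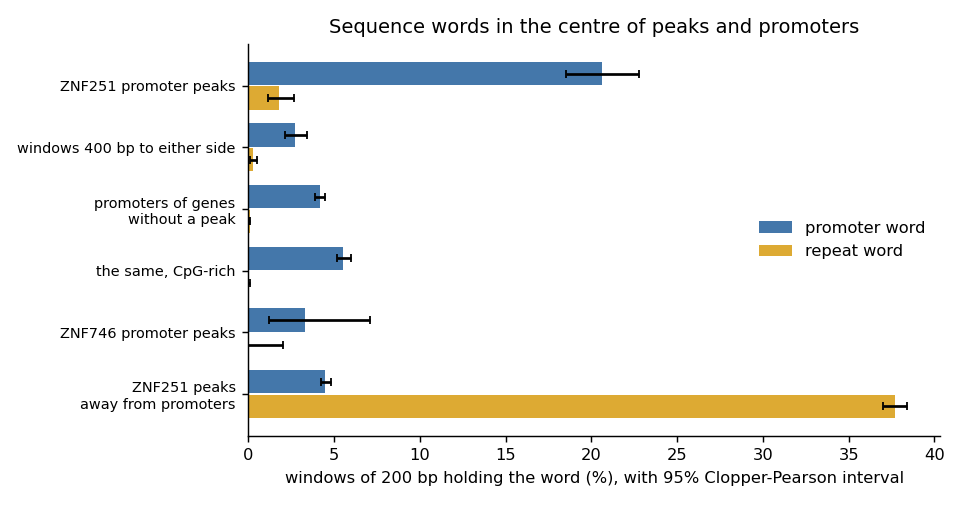
Share of 200-bp windows that held each word, in percent on the horizontal axis, for ZNF251 promoter peaks, their flanks, promoters of genes without a peak, ZNF746 promoter peaks and ZNF251 peaks away from promoters; bars are shares and lines 95% Clopper-Pearson intervals. The promoter word is highest at 20.6% in ZNF251 promoter peaks, and the repeat word at 37.7% in the ZNF251 peaks away from promoters.

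The 4 forms of the promoter word were not equally frequent. The form with G at the free position stood in 9.31% of promoter peaks against 2.14% of all promoters, and that with C in 5.63% against 1.97%. The form with A stood in 5.70% against 0.343%, and that with T in 3.1% against 0.348%. The forms with A and T were thus rarer in promoters at large than the other 2, and their shares in promoter peaks were further above that background. Peaks were read at their midpoints and all promoters at the TSS, so these shares differ in place as well as in binding. On either side of the word the most frequent base never exceeded 57.5%, which was a G at the second base after it.

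The promoter word also lay close to the peak centres. Of 334 occurrences in the central 200 bp, 232 (69.5%) had their centre within 50 bp of the peak midpoint and 38.9% within 25 bp, with a median distance of 35.0 bp. Relative to the nearest TSS, 49.7% were upstream, and 56.6% (51.1 to 62.0%) read along the strand of that TSS. By score, the sixth of the promoter peaks with the highest scores (579.51 to 3194.17) held the word in 27.7% (22 to 34.0%), and the other sixths in 15.6 to 20.8%, with intervals that overlap each other. Among genes whose canonical promoter held the word, 136 of 885 (15.4%) had a ZNF251 promoter peak, against 7.29% of genes without it, so most promoters with the word had no peak above 80. Within CpG-rich promoters these shares were 15.8 and 9.75%.

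The peaks gathered around the start sites. The midpoint lay within 50 bp of the nearest protein-coding TSS in 379 peaks (27.3%) and within 250 bp in 75%, and the peak itself covered that TSS in 77.2%. Midpoints were upstream in 50.9% (48.2 to 53.5%) and at or downstream of the TSS in 49.1%, with a median position of -2 bp. These distances were used by the rule and are a description, and choosing the nearest of many transcript starts favours short ones. With canonical starts alone, the midpoint lay within 50 bp in 19.8% and within 250 bp in 69.9% of 1095 peaks. By annotation, 34.0% of midpoints fell in an untranslated exon, 30.5% outside protein-coding transcripts, 25.5% in an intron and 9.96% in a coding exon. The canonical TSS was within the window for 79.0% of peaks, and 311 genes (20.7%) were reached only at another TSS. 40 genes had 2 or more promoter peaks, and 146 peaks had more than 1 gene in the window.

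**Figure D2:**
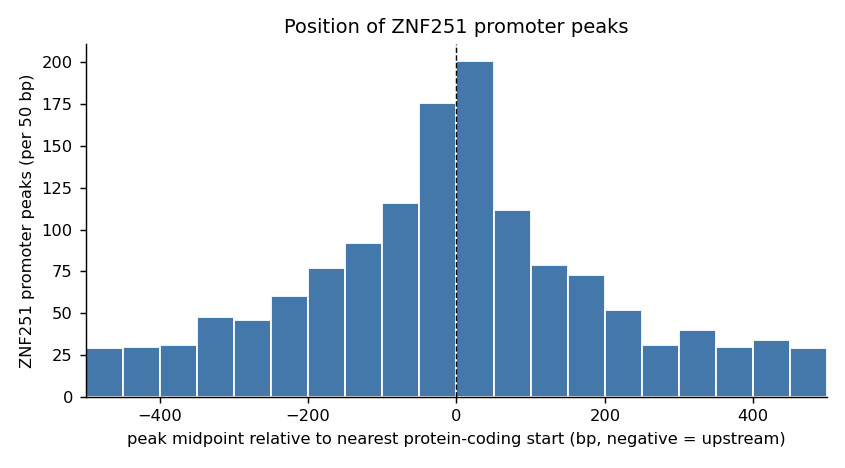
Number of ZNF251 promoter peaks per 50 bp (vertical axis) by the position of the peak midpoint relative to the nearest protein-coding TSS in bp (horizontal axis, negative upstream, dashed line at the TSS). The tallest bars are the 201 peaks just downstream and the 176 just upstream, and the outermost bars hold 29 each.

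Promoter peaks were somewhat longer than the others, with a median of 542 bp (lowest 190, highest 3449) against 447 bp. Their scores ran from 80.1 to 3194, with a median of 183 and 185 elsewhere. The upper end differed more, since 9.60% (8.10 to 11.3%) of promoter peaks and 5.25% of the other peaks scored at least 1000. A score of exactly 3100.00, the most frequent single value, was carried by 26 promoter peaks (1.88%) and by 0.306% of the others, so the order of the peaks at or above it is not interpreted. Just above the threshold stood the promoters of ZNF827 (80.10), MAPK12 (80.25) and CCT6A (80.40), and just below it those of USP45 (79.92), HGSNAT (79.85) and TMEM14A (79.74).

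The highest-scoring promoter peak, at 3194.17, lay at chr1:59762164-59763293 with its midpoint 38 bp upstream of a TSS of FGGY, a carbohydrate kinase gene. Next came the peaks of C1orf112 (3179.56) and of FKBP7 (3127.55), which encodes a prolyl isomerase of the endoplasmic reticulum. The other 17 of the 20 highest peaks scored 3100.00 and were taken in list order among the peaks tied at that score. They served varied functions. H4C14 and H4C15 encode histone H4, PRKG1 the cGMP-dependent protein kinase, CFL1 the actin-severing cofilin, HOXC8 a homeobox transcription factor, TMED2 a cargo receptor between endoplasmic reticulum and Golgi, CLNS1A a subunit of the machinery that assembles spliceosomal particles and MEX3B an RNA-binding protein. Other peaks were at LRRC43, EBPL, GALNT16 (a glycosyltransferase), MESD (a chaperone of lipoprotein receptors), MPHOSPH6 (an exosome-associated protein), ZNF524 with FIZ1, KIZ (a centrosomal protein) and MCM3AP with YBEY. Of these 20, 6 held the promoter word in their central 200 bp, none held the repeat word, 4 were at divergent promoters and 1, at MEX3B, overlapped a peak of another KZFP.

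Genes with a ZNF251 promoter peak mostly had a CpG-rich canonical promoter, though the canonical TSS was not always the bound one. The definition was a GC content above 50% and an observed to expected CpG ratio above 0.6 within 250 bp of the canonical TSS. Of all canonical promoters 68.2% met this definition, of genes with a peak 90.0% (88.4 to 91.5%), and of genes without a peak 66.3%. Read the other way, 10.1% of genes with a CpG-rich promoter and 2.40% of the other genes had a promoter peak. The central 200 bp of promoter peaks had a median GC content of 64.5%, close to the 66.5% at the TSS of genes without a peak, whereas the other ZNF251 peaks had 39.0%. Ratios of observed to expected CpG were 0.860, 0.808 and 0.197 in the same order.

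The 2 sets of ZNF251 peaks also differed in how often they resembled each other. With blastn matches of at least 100 bp, 11.9% (10.2 to 13.7%) of the promoter peaks matched a ZNF251 peak away from promoters, and 12.6% another promoter peak. Of the other ZNF251 peaks, every 14th in list order was compared in the same way, and 70.0% of these 1400 matched another peak away from promoters.

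Genes with a divergent TSS were more frequent among the bound genes than among all genes. A gene counted as divergent through any of its starts and as bound through any of them, so the bound TSS need not be the divergent one. Over all protein-coding genes, 14.3% had a TSS with a TSS of another protein-coding gene head to head on the opposite strand within 1000 bp. This share was 21.3% (19.3 to 23.5%) for the 1500 genes with a ZNF251 promoter peak and 13.7% (13.2 to 14.2%) for genes without. Restricted to canonical TSSs, it was 14.9% of genes with a peak and 9.42% of all. A partner that was a lncRNA alone was found for 12.8% of all genes, 18.3% (16.4 to 20.4%) of genes with a peak and 12.4% of genes without. CpG-rich promoters moved with both measures, since 87.2% of divergent genes and 64.9% of the others had one. Within CpG-rich promoters the divergent share was 21.3% (19.2 to 23.6%) for genes with a peak and 18.2% (17.5 to 18.9%) for genes without, a smaller gap. Both genes of a pair were counted, and a single peak can reach both, so the genes are not independent. A divergent gene can thus count as bound through the peak of its partner. This way of counting by itself raises the divergent share of genes with a peak. The intervals by gene treat the genes as independent and are too narrow, and the gap was not tested.

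Counted by peak, 152 promoter peaks (11%) had in their window the TSS of such a protein-coding pair, and 227 (16.4%) that of a gene with a divergent lncRNA alone. No background by peak was computed, and the shares by gene count another unit. These shares by peak are therefore a description and show no preference. Starts on both strands lay within 500 bp of the midpoint in 117 of the 152, and the midpoint fell between the starts of a pair in 70. The nearest paired starts were a median of 129 bp apart, from 1.00 to 930 bp. At the SNRPD3 and GUCD1 pair, SNRPD3 encoding a core protein of spliceosomal particles, the starts were 64 bp apart and the score was 3100.00. POLR3K, a subunit of RNA polymerase III, and SNRNP25, a protein of the minor spliceosome, shared a peak of 758.45 with starts 220 bp apart. HSPD1 and HSPE1, the mitochondrial chaperonin and its co-chaperonin, shared a peak of 602.93. CBX3, which encodes the heterochromatin protein HP1γ, and HNRNPA2B1, an RNA-binding protein gene, shared a peak of 342.46 with starts 115 bp apart. WARS1, a tRNA synthetase gene, and WDR25 shared a peak of 2139.07. The promoter word stood in 20.4% (14.3 to 27.7%) of the divergent peaks and in 20.6% (18.4 to 22.9%) of the other promoter peaks.

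Gene classes were set by symbol, and each is read against the 7.58% of all protein-coding genes that had a ZNF251 promoter peak. Of 26 classes, 17 had a larger share. In 5 the 95% interval lay wholly above 7.58%, namely replication-dependent histones, splicing factors, proteasome subunits, cell cycle genes and zinc finger genes. The name cell cycle genes stands here for cyclins, cyclin-dependent kinases and CDC genes. In 3 classes the interval lay wholly below, namely olfactory receptors, keratins with their associated proteins, and interleukins with chemokines. No test was made between classes, and 1231 of the 1500 genes were in none of them. The 7.58% takes no account of CpG content, and among genes with a CpG-rich promoter 10.1% had a peak.

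**Figure D3:**
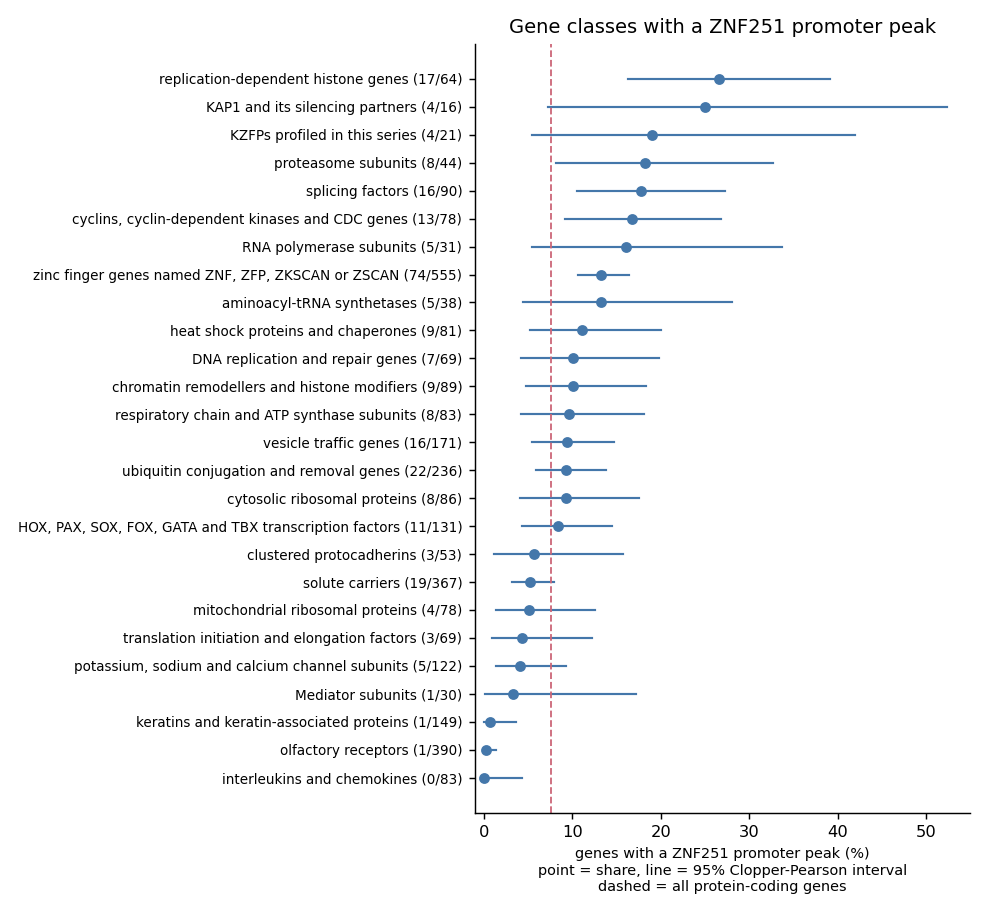
Share of the genes of each class with a ZNF251 promoter peak, in percent on the horizontal axis, with the number of genes with a peak and of all genes in parentheses; points are shares, lines 95% Clopper-Pearson intervals and the dashed line the 7.58% of all protein-coding genes. Replication-dependent histone genes head the list at 26.6%, and the 3 classes at its foot hold 2 genes with a peak between them.

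Of 90 splicing factors 16 had a peak, 17.8% (10.5 to 27.3%), including SNRPD3 (3100.00), SRSF11, a serine/arginine-rich splicing factor (2075.96), the kinase gene PRPF4B (1182.62) and SNRNP25 (758.45). RNA polymerase subunits had 5 of 31, 16.1% (5.45 to 33.7%), with the highest scores at POLR3B (803.22), POLR3K (758.45), POLR3A (394.59) and POLR2M (194.36). POLR3B, POLR3K and POLR3A belong to RNA polymerase III. Mediator, which links activators to RNA polymerase II, had 1 of 30, at MED29 (118.63).

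Proteasome subunits had 8 of 44, 18.2% (8.19 to 32.7%), with PSMD14, the deubiquitinase of the lid, at 1111.75 and PSMB5, a catalytic subunit, at 172.60. Cell cycle genes, a class set by symbol and not by function, had 13 of 78, 16.7% (9.18 to 26.8%). The highest scores were at CDK1, the mitotic kinase (944.10), CDC5L (866.63), CCNT1, the cyclin of the elongation factor P-TEFb (519.03), and CDK13 (513.67). Among protein synthesis genes, aminoacyl-tRNA synthetases had 5 of 38, cytosolic ribosomal proteins 8 of 86, mitochondrial ribosomal proteins 4 of 78 and translation factors 3 of 69, with EIF5A2 at 3100.00. The intervals of these 4 classes all held 7.58%.

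DNA replication and repair genes (7 of 69), chromatin genes (9 of 89, with the histone demethylase gene KDM2B at 2865.62), chaperones (9 of 81), respiratory chain subunits (8 of 83), ubiquitin genes (22 of 236), vesicle traffic genes (16 of 171, with SEC63 of the translocon at 3100.00) and developmental transcription factors (11 of 131, with HOXC8 at 3100.00) had shares between 8.40 and 11.1%. Also below the background were solute carriers with 19 of 367 (5.18%), clustered protocadherins with 3 of 53, and ion channels with 5 of 122. Within CpG-rich promoters, respiratory chain subunits (9.72%), ubiquitin genes (9.95%), vesicle traffic genes (8.97%) and developmental transcription factors (9.80%) lay below the 10.1% of all genes there. DNA replication and repair genes (10.4%), chromatin genes (10.3%) and chaperones (12.9%) lay above it. The intervals of all these classes held 10.1%.

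The classes with the fewest peaks were also those with few CpG-rich promoters. Olfactory receptors had 1 peak among 390 genes, at OR1F1 (786.82), and 1.05% of their promoters were CpG-rich. Keratins and their associated proteins had 1 of 149, at KRT72 (122.96), with 3.36% CpG-rich. Interleukins and chemokines had 0 of 83, which by the limit of 3 counts allows a share of up to 3.61%, with 15.7% CpG-rich. Within CpG-rich promoters alone, 10.1% of all genes had a peak. The share was 34.2% (19.6 to 51.4%) for replication-dependent histones, 19% (11.3 to 29.1%) for splicing factors and 15.5% (12.3 to 19.2%) for zinc finger genes. For proteasome subunits it was 17.9% (7.54 to 33.5%) and for cell cycle genes 16.7% (8.92 to 27.3%), and these 2 intervals held 10.1%.

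ZNF251 peaks were also found at promoters of zinc finger genes and of a few genes for the KZFP silencing machinery. Of 555 genes named ZNF, ZFP, ZKSCAN or ZSCAN, 74 had a peak, 13.3% (10.6 to 16.4%), against 7.41% of all other protein-coding genes. The highest were at ZNF524 (3100.00), ZNF775 (2828.42), ZNF670 (2768.96) and ZNF33A (2377.16). On chromosome 19, where KZFP genes are clustered, 41 of 258 zinc finger genes (15.9%) and 5.43% of the other genes had a peak, and outside chromosome 19 there were 33 zinc finger genes of 297, 11.1% (7.77 to 15.2%). The promoter word was in 8 of the 72 peaks at zinc finger genes, 11.1% (4.92 to 20.7%), beside 20.6% of all promoter peaks.

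Of the 21 profiled KZFPs, 4 had a ZNF251 peak at their own promoter, which are ZKSCAN8 (590.01), ZNF256 (398.97), ZNF160 (396.45) and ZNF416 (114.06). The ZNF251 gene itself was not among them. Of 16 genes for KAP1 and its silencing partners, 4 had a peak, 25% (7.27 to 52.4%), an interval that also held 7.58%. Within CpG-rich promoters their share was 26.7% (7.79 to 55.1%), which held 10.1%. These were SIRT1, a deacetylase gene (737.14), ATF7IP, a partner of the methyltransferase SETDB1 (579.68), CBX3 (342.46) and CBX5, which encode the heterochromatin proteins HP1γ and HP1α (CBX5 at 278.23). TRIM28, which encodes KAP1, had no promoter peak above 80.

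Replication-dependent histone genes had the largest share of any class, with 17 of 64 genes, 26.6% (16.3 to 39.1%), at 15 distinct peaks. These genes are expressed in S phase and lie in clusters, mostly on chromosome 6. The share was uneven between families. H4 genes had 9 of 13, 69.2% (38.6 to 90.9%), whereas H3 had 3 of 13, H2B 3 of 16, H2A 2 of 16 and H1 0 of 6. Scores at H4 genes ran from 108.69 to 3100.00 with a median of 1395, and the highest score at any other histone gene was 661.83, at H3C15. All 9 H4 peaks had their midpoint in the coding exon, 101 to 264 bp downstream of the TSS. H2AC11 and H2BC11, which are divergent, shared a peak of 410.81, as did H2AC15 and H2BC15 with 101.14.

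H4 genes encode nearly the same protein and resemble each other in coding sequence, so the stretch that carries the promoter word could be read in each of the 13. The window of 30 bases most like that of H4C11 within 500 bp of the TSS is shown on the coding strand in hg19, in order of score, with the 8 letters at the place of the promoter word of H4C11 in capitals. The comparison was made after the H4 values were seen.
H4C14, score 3100.00, chr1:149804281-149804310, plus strand: aggcaaaggggGCGCTAAGcgccaccgcaa
H4C15, score 3100.00, chr1:149832636-149832665, minus strand: aggcaaaggggGCGCTAAGcgccaccgcaa
H4C11, score 2090.24, chr6:27791935-27791964, plus strand: tggcaaaggcgGCGCTAAGcgccaccgtaa
H4C12, score 1610.91, chr6:27799244-27799273, minus strand: tggcaaaggcgGCGCTAAGcgccaccgtaa
H4C5, score 1395.12, chr6:26204905-26204934, plus strand: gggtaaaggagGCGCTAAGcgtcaccgtaa
H4C13, score 717.66, chr6:27841227-27841256, minus strand: gggcaaaggagGCGCTAAGcgccaccgcaa
H4C3, score 519.24, chr6:26104208-26104237, plus strand: ggggaagggtgGTGCTAAGcgccatcgtaa
H4C16, score 247.46, chr12:14923957-14923986, minus strand: gggtaagggagGCGCCAAGcgccaccggaa
H4C8, score 108.69, chr6:26285666-26285695, minus strand: gggtaagggagGAGCTAAGcgtcatcgcaa
H4C4, score 66.99 and so below the threshold, chr6:26189243-26189272, minus strand: aggtaagggtgGCGCCAAGcgtcaccgtaa
H4C1, no peak listed, chr6:26021939-26021968, plus strand: gggtaagggggGTGCCAAGcgccaccgcaa
H4C7, no peak listed, chr6:26247144-26247173, minus strand: tgggaaaggcgGTGCCAAGtgccatcgcaa
H4C9, no peak listed, chr6:27107120-27107149, plus strand: ggggaaaggggGTGCCAAGcgccaccgcaa

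With both strands read, the promoter word was whole in this window of 7 H4 genes, which all had a peak, with scores from 519.24 to 3100.00. In H4C3 it was whole on the strand opposite to the one shown. The other 6 genes lacked it in this window by 1 letter or, in H4C7, by 2. Of these, H4C16 (247.46) and H4C8 (108.69) had a peak above 80, H4C4 had a listed peak of 66.99, and the other 3, H4C1, H4C7 and H4C9, had no listed peak. The stretch began 58 to 90 bp downstream of the TSS in genes with a peak and 62 to 79 bp in the 4 without. With both strands read over 500 bp to either side of the TSS, the promoter word was found at 9 of 9 H4 genes with a peak and 0 of 4 without, beside 16.2% of all protein-coding genes, 32.1% of genes with a peak and 14.9% of genes without. The other replication-dependent histone genes had it at 3 of 8 with a peak and 3 of 43 without. At H4C16 and H4C8 the word lay outside the 30-base window. In the central 200 bp of the peaks, the measure used for all promoter peaks, 6 of the 9 H4 peaks held the word, 66.7% (29.9 to 92.5%). The stretch of H4C14 lay 189 bp from its peak midpoint. Since H4C14 and H4C15, and H4C11 and H4C12, are the same over these 30 bases, they are not independent sites, and reads that fit several copies could have been placed at any of them.

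**Figure D4:**
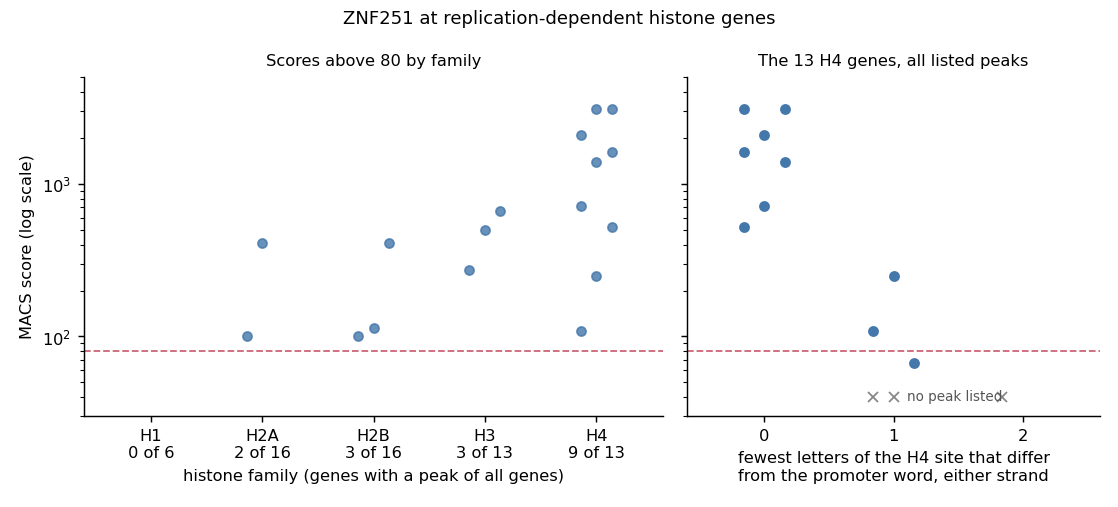
MACS scores (log axis, dashed line at 80) of ZNF251 promoter peaks at replication-dependent histone genes by family, left, and of all listed peaks at the 13 H4 genes by the fewest letters of their window that differ from the promoter word on either strand, right, where crosses are genes without a listed peak. H4 has 9 of 13 genes with a peak, and the 7 genes with 0 differing letters score from 519.24 to 3100.00, above the 247.46 that is the highest of the other 6.

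Few ZNF251 promoter peaks were shared with the other 20 KZFPs, which together had 327 peaks above 80 at protein-coding promoters by the same rule. With an overlap of at least 1 bp, 32 promoter peaks, 2.31% (1.58 to 3.24%), overlapped a peak above 80 of another KZFP, against 0.842% (0.719 to 0.980%) of the other ZNF251 peaks and 0.939% of all ZNF251 peaks. This share depended on the rule of overlap, being 4.11% with all deposited peaks of the other lists, where the other ZNF251 peaks had 1.61%, and 1.08% with a reciprocal overlap of at least 50%. Read from the other lists, 34 of the 327 promoter peaks, 10.4% (7.31 to 14.2%), overlapped a ZNF251 promoter peak. None of the 1386 met any listed peak of the HEK293T control, which by the same limit allows up to 0.216%, though that control was a ChIP-seq library and had 4 peaks above 80 in all. Lists differ in assay, and their depth is unknown, so the sizes of these overlaps cannot be compared between KZFPs.

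ZNF746, profiled by ChIP-seq, overlapped 16 ZNF251 promoter peaks, or 29 with all of its deposited peaks. Of its 260 peaks above 80, 180 (69.2%) were at protein-coding promoters, and 15 of those, 8.33% (4.74 to 13.4%), overlapped a ZNF251 promoter peak, which is 1.15% of the ZNF251 promoter peaks, or 16 peaks. By gene, 31 were shared, 2.07% of the 1500 ZNF251 genes and 17.3% of the 179 ZNF746 genes, where 0.904% of all protein-coding genes had a ZNF746 promoter peak and 7.58% a ZNF251 promoter peak. Shared promoters included MEX3B (3100.00 for ZNF251 and 204.95 for ZNF746), ATP2A2, the calcium pump of the endoplasmic reticulum (567.78 and 292.17), the phosphatase gene PPM1D (511.93 and 128.17) and HOXB9 (143.55 and 324.86). The midpoints of the overlapping peaks were a median of 331 bp apart, from 37.0 to 734 bp, and 2 of the 16 ZNF251 peaks held the promoter word. For the other lists the 20 overlaps had midpoints a median of 98.0 bp apart, from 7.00 to 465 bp.

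Among the ChIP-exo lists, ZNF578 overlapped 5 ZNF251 promoter peaks (5 of its own 25), ZNF546 and ZNF850 4 each (4 of 13 and 4 of 35) and ZNF416 2 (both of its 2 promoter peaks). ZNF578 thus overlapped 0.361% of the ZNF251 promoter peaks and 0.255% of the other ZNF251 peaks. The same 2 shares were 0.289 and 0.0255% for ZNF546, 0.289 and 0.153% for ZNF850, and 0.144 and 0.0459% for ZNF416. These rest on few peaks and were not tested. 3 promoters were shared with 2 or more other KZFPs. At DSCAM, which encodes a neuronal adhesion molecule, ZNF251 (265.33), ZNF416 (174.74), ZNF546 (155.79) and ZNF850 (88.39) had peaks. TSPAN7, a tetraspanin gene, had peaks of ZNF251 (210.61), ZNF416 (117.44) and ZNF546 (242.93), and BMP8B, a bone morphogenetic protein gene, had those of ZNF251 (153.52), ZNF546 (186.01) and ZNF724P (81.75). EPB41L2, which encodes a membrane skeleton protein, followed among the promoters shared with 1 KZFP, with 698.06 for ZNF251 and 95.07 for ZNF578.

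**Figure D5:**
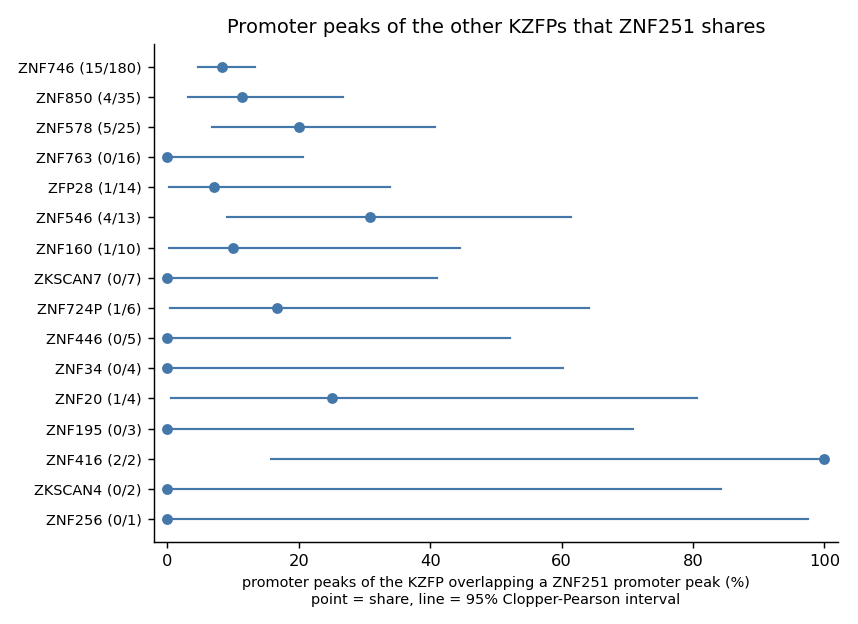
Share of the promoter peaks of each other KZFP that overlapped a ZNF251 promoter peak, in percent on the horizontal axis, with the number of overlapping and of all promoter peaks in parentheses; points are shares, lines 95% Clopper-Pearson intervals, and lists are ordered by their number of promoter peaks. The lists with most promoter peaks lie at 8.33% (ZNF746), 11.4% (ZNF850) and 20.0% (ZNF578), and the widest intervals belong to lists with a handful of peaks.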

How the data were processed

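ChIP-exo and ChIP-seq peak lists of 21 KZFPs and of a HEK293T control were used, with 1 library per group, taken from the labels. The authors mapped reads to hg19 with Bowtie2 (2.2.1 in the submitters' processing notes) and called peaks per library with MACS 1.4, ChIP-exo libraries against a total input sampled from the study's libraries and ChIP-seq libraries against a total input of matching sonication. The deposited score is that of MACS, with a lowest value of 50, and depends on depth, which is unknown here.

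From these lists, peaks above 80 were kept, as in the study's methods. Starts came from 89204 protein-coding transcripts of GENCODE release 44 on hg19, and 19515 of 19794 gene symbols had an Ensembl canonical start. Promoter statistics were read from GRCh37 (pysam 0.24.0) at 19514 canonical starts. The Y copy of the pseudoautosomal regions is masked in that sequence, so the 2 promoter peaks there, at genes that also had a peak on X, entered no base composition. Without them there were 1384 promoter peaks. Words were searched on both strands in the central 200 bp. Matches were made with blastn 2.17.0 (E below 1e-5). Intervals are exact Clopper-Pearson (scipy 1.17.1). No test was run between groups, since each has 1 library.

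Named genes were the 20 highest-scoring promoter peaks, up to 4 genes per class with the highest scores, the 5 promoters with peaks of most other KZFPs (ties by ZNF251 score), all profiled KZFP genes with a peak and the 3 peaks on either side of the threshold. 1 of the 20 highest-scoring promoter peaks is not reported here. The H4 comparison, the examples of divergent pairs and of sharing with ZNF746 and the wider promoter word were chosen after values were seen. The members, gene classes and tests were chosen with earlier results of these data known. Scripts were tested on simulated peaks. The total inputs were not used here.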

Additional observations from a re-analysis of the deposited data

How the results depend on the processing

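With all deposited peaks there were 2080 promoter peaks, and with a score above 150 there were 845, at 931 genes. Counted by peak, the divergent share was 9.32% with Ensembl canonical transcripts alone, against 11% with all protein-coding transcripts. The share of promoter peaks that overlapped another KZFP was 4.11% when the other lists were used at all deposited scores, and 1.08% with a reciprocal overlap of at least 50%. The share with the promoter word, whose alternatives were all chosen after seeing the data, was 13.5% in the central 100 bp, 25.7% in the central 400 bp and 29.2% in the whole peak, where all canonical promoters gave 2.44% and 8.28% at the first 2 widths. It was 17.7% with all deposited peaks and 22.8% on even-numbered chromosomes, X and Y alone. Other windows, thresholds and transcript sets kept counts within 1.5 times and shares within their counting interval, and 16 to 18 classes lay above the share of all genes under each alternative run. No paired analysis was possible because each group has 1 library. The lists hold no read counts, so no value could be set against depth.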

Other observations

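Of the 25 promoter peaks with the repeat word, 6 were at PPIAL4 genes, a family of near-identical cyclophilin A copies on chromosome 1, with scores from 607.88 to 1621.66. These copies are not independent sites. Others were at BCL9 (1417.21), a coactivator of Wnt signalling, ERP29 (1136.98), which encodes a chaperone of the endoplasmic reticulum, and FXR1 (480.04), an RNA-binding protein gene whose peak held both words. These genes were chosen after their values were seen.

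The form of the promoter word with A, GCGCTAAG, ends in letters with which the repeat word, TAAGTGAAA, begins. Of 463 ZNF251 peaks away from promoters that held GCGCTAAG, 43 (9.29%) had it running on into the whole repeat word, as GCGCTAAGTGAAA, and of 79 promoter peaks with GCGCTAAG 1 did (1.27%).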
